A study of Mus musculus with 36 samples.

Results

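Interferon-stimulated genes are the genes that a cell switches on when interferon reaches its surface. The account here covers 41 of them in spleen CD4+ T cells of mice, out of 45706 Ensembl gene identifiers counted in each library. The 41 genes were chosen by symbol as a functional module, by a rule that uses no measured value. Earlier results of these data were known when they were chosen, and all 41 were found in the files. Bulk RNA-seq was counted in 36 libraries from C57BL/6J mice, of which 28 fell into 10 labelled groups. The first 2 groups were naive CD4+ T cells carrying the change that the labels call Ets1-SE-KO (KO, 2 libraries) and wild-type naive cells (WT, 2 libraries). A first experiment with polarized helper cells held KO Th1, WT Th1, KO Th2 and WT Th2 cells, with 3 libraries each. A second experiment with Th1 cells held KO cells given a retrovirus carrying Ets1 (4 libraries), untransduced KO cells (2 libraries), WT cells given an empty retrovirus (4 libraries) and untransduced WT cells (2 libraries). The other 8 libraries carry a title that contradicts their transduction label and entered no comparison. The labels name the Ets1 locus as the subject of the study, describe naive cells enriched from spleen by negative selection, and describe Th1 cultures on anti-CD3 with anti-CD28, IL-2 and IL-12 for 6 days. The sources used here give neither the Th2 culture nor the age of the mice. Library titles carry a B number and a T number that the labels do not explain, and nothing in them says that replicates came from separate animals. All naive and first-experiment libraries carry B number 1, and those of a group differ only in T number. P-values below thus reflect library-to-library spread alone, possibly only technical.

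As background, type I interferons bind the receptor Ifnar1 and Ifnar2 on nearly every cell and, through the kinases Jak1 and Tyk2, assemble a complex containing Stat2 and Irf9 that binds interferon-stimulated response elements (ISREs) in the promoters of these genes. Interferon gamma, the main cytokine of Th1 cells, signals through Ifngr1 and Ifngr2 to factors that bind gamma-activated sites (GAS) and induce Irf1 and families of GTPases. The products sense or bind viral nucleic acid, block viral replication or adjust the interferon signal itself, and T cells keep many of them at a low level without infection.

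The promoters carry the most direct sequence signature of the module, so 6 of them are printed first. Of the 41 genes, 30 had an entry in the RefSeq promoter table (GRCm38.p6, 250 bases before to 50 after the start), and the others were Dhx58, Ifi27, Ly6e, Mx1, Mx2, Oas2, Parp14, Parp9, Rtp4, Usp18 and Zbp1. The ISRE was searched as GAAANNGAAA on both strands. Each sequence is written 5′ to 3′ in the direction of its gene, with capitals marking ISRE matches, or the GAS match TTCNNNGAA in Irf1. Ifit1 (chr19:34640639-34640938, plus strand), Ifit3 (chr19:34583279-34583578, plus) and Ifit3b (chr19:34607707-34608006, plus) belong to 1 cluster on chromosome 19. Isg15 (chr4:156200769-156201068, minus) has overlapping matches, Eif2ak2 (chr17:78882523-78882822, minus) has its match just after the start, and Irf1 (chr11:53769764-53770063, plus) shows the gamma-activated kind of element.
Ifit1: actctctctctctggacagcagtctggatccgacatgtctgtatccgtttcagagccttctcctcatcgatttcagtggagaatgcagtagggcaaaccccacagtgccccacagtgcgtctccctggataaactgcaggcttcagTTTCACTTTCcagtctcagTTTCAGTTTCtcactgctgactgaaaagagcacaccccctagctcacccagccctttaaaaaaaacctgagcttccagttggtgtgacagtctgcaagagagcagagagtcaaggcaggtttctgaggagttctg
Ifit3: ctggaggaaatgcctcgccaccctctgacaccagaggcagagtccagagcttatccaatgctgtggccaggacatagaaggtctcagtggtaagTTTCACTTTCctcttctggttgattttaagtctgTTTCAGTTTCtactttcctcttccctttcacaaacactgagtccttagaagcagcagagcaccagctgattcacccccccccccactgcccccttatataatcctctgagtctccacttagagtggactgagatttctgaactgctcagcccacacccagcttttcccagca
Ifit3b: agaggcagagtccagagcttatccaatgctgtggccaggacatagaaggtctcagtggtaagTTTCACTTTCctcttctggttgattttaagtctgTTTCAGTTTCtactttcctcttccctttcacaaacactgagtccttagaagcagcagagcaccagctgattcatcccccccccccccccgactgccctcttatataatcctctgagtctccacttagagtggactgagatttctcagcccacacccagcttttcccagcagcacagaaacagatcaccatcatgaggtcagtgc
Isg15: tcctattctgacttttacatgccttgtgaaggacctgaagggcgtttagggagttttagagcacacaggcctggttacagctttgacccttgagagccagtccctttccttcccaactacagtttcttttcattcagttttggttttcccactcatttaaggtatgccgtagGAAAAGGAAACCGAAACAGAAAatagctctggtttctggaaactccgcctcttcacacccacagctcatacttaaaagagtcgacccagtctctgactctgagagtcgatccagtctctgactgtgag
Eif2ak2: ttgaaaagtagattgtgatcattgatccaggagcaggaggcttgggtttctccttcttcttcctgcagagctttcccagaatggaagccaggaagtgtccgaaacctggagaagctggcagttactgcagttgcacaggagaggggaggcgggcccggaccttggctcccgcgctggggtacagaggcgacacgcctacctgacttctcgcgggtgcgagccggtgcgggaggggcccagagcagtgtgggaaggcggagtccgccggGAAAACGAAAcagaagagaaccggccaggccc
Irf1: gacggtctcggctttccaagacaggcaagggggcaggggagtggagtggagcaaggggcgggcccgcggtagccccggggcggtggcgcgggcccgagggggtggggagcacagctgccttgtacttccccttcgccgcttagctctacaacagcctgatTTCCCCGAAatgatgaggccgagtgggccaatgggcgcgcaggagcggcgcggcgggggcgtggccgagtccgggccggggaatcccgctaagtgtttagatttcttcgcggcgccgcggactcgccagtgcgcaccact

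A gene was counted once when any of its promoter windows held a match. An ISRE match was present in 13 of the 30 genes (43.3%), which have 39 windows, against 3.99% of the 27025 genes in the table. A GAS match was present in 8 of 30 (26.7%), against 9.55% of all genes. The ETS core CGGAAG, also searched on both strands, was present in 4 of 30 (13.3%), against 18.8% of all genes. The Ifit3 and Ifit3b promoters each hold 2 ISRE matches 34 bases apart, and they share an unbroken run of 169 bases. How reads were divided between the transcripts of these paralogous genes was not tested. Isg15 has 3 overlapping matches that start 78 to 66 bases before its start. A match to these letters is a description of the sequence, not of a bound site.

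Total gene counts were 5069623 to 5852673 per library in naive cells, 7311614 to 10256407 in the first Th experiment and 1813288 to 6844944 in the second. Levels are CPM, counts scaled to library size, with factors set within each set of libraries, and a gene was tested when at least 10 counts were present in at least 2 libraries of its set. T cell markers (Cd3d, Cd3e, Cd3g, Cd4 and Trac) summed to 2587 to 2764 CPM in naive KO and 2314 to 2331 CPM in naive WT libraries. Ets1 was lower in KO than in WT naive cells (708 ± 16.7 and 1821 ± 5.82 CPM, SD, n = 2 each). It was also lower in KO Th1 cells of the first experiment (583 ± 38.0 CPM, against 796 ± 52.5 CPM in WT, n = 3 each), while Th2 cells had 716 ± 13.9 CPM in KO and 838 ± 21.9 CPM in WT (adjusted p = 0.176). In the second experiment, untransduced Th1 cells had 233 ± 17.5 CPM of Ets1 in KO, against 391 ± 16.9 CPM in WT (n = 2 each). Gm27162, an annotated gene used as a second check of the labels, had 0 counts in every KO library of the 10 groups and counts in every WT library. Bulk counts cannot tell fewer cells of a type from less RNA per cell.

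**Figure D1:**
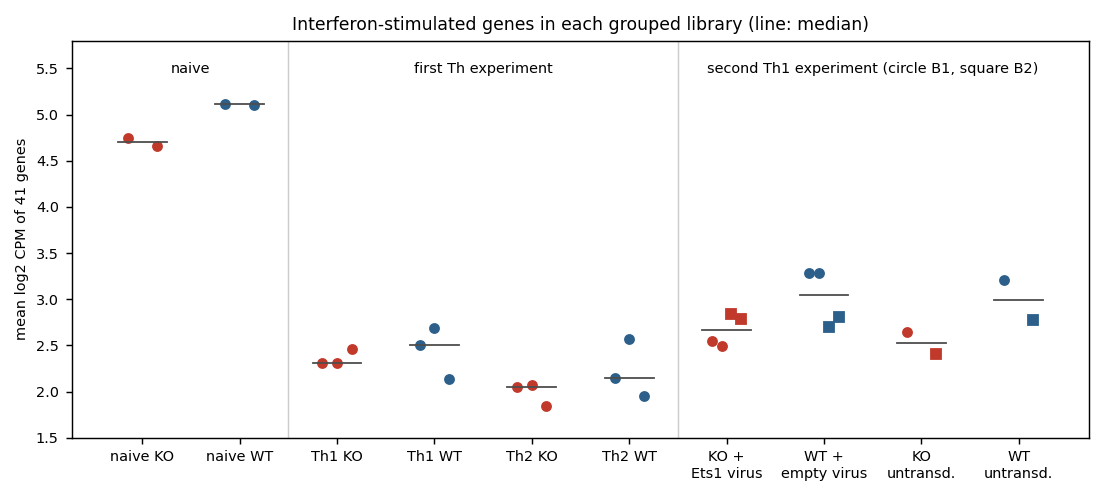
Mean log2 CPM of all 41 interferon-stimulated genes (vertical axis) in each of the 28 grouped libraries, with KO in red, WT in blue and a line at each group's median. Naive libraries sit between 4.66 and 5.11, with both KO libraries below both WT libraries, and all cultured libraries sit between 1.85 and 3.29.

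The mean log2 CPM of the 41 genes gave a first view of the module. It was 4.74 and 4.66 in the naive KO libraries, against 5.11 and 5.11 in the naive WT libraries. The KO and WT naive libraries did not overlap. Here and below, a lack of overlap describes the values and is not a further test. The share of all genes that separate in this way is not given here. In Th1 cells of the first experiment it was 2.31, 2.31 and 2.47 in KO and 2.51, 2.69 and 2.14 in WT. In Th2 cells it was 2.05, 2.07 and 1.85 in KO and 2.15, 2.57 and 1.95 in WT. KO and WT overlapped in both kinds of helper cell. The scale was set separately in each set of libraries, and the step between naive and cultured cells is taken up below with a shared scaling.

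In naive CD4+ T cells the interferon-stimulated genes were broadly lower in KO than in WT. Of 40 members tested (Ifi44 had too few counts), 22 fell and 1, Ifi27, rose, at an adjusted p below 0.05 in edgeR's quasi-likelihood test. Across all 11309 genes tested in this comparison 17.5% were called, 8.75% lower and 8.79% higher. The members' median log2 fold change (KO over WT) was -0.43, against 0.00 for all genes. Of the 40 members 34 were below 0, against 49.3% of all genes. Direct examples are the RNA-binding IFIT family, of which all 4 members fell, and the surface protein Ly6e, the member with the lowest p. Leaving out naive KO library 1 reduced the calls to 9 members and leaving out naive KO library 2 reduced them to 13. The median stayed between -0.50 and -0.39 when any 1 naive library was left out.

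**Figure D2:**
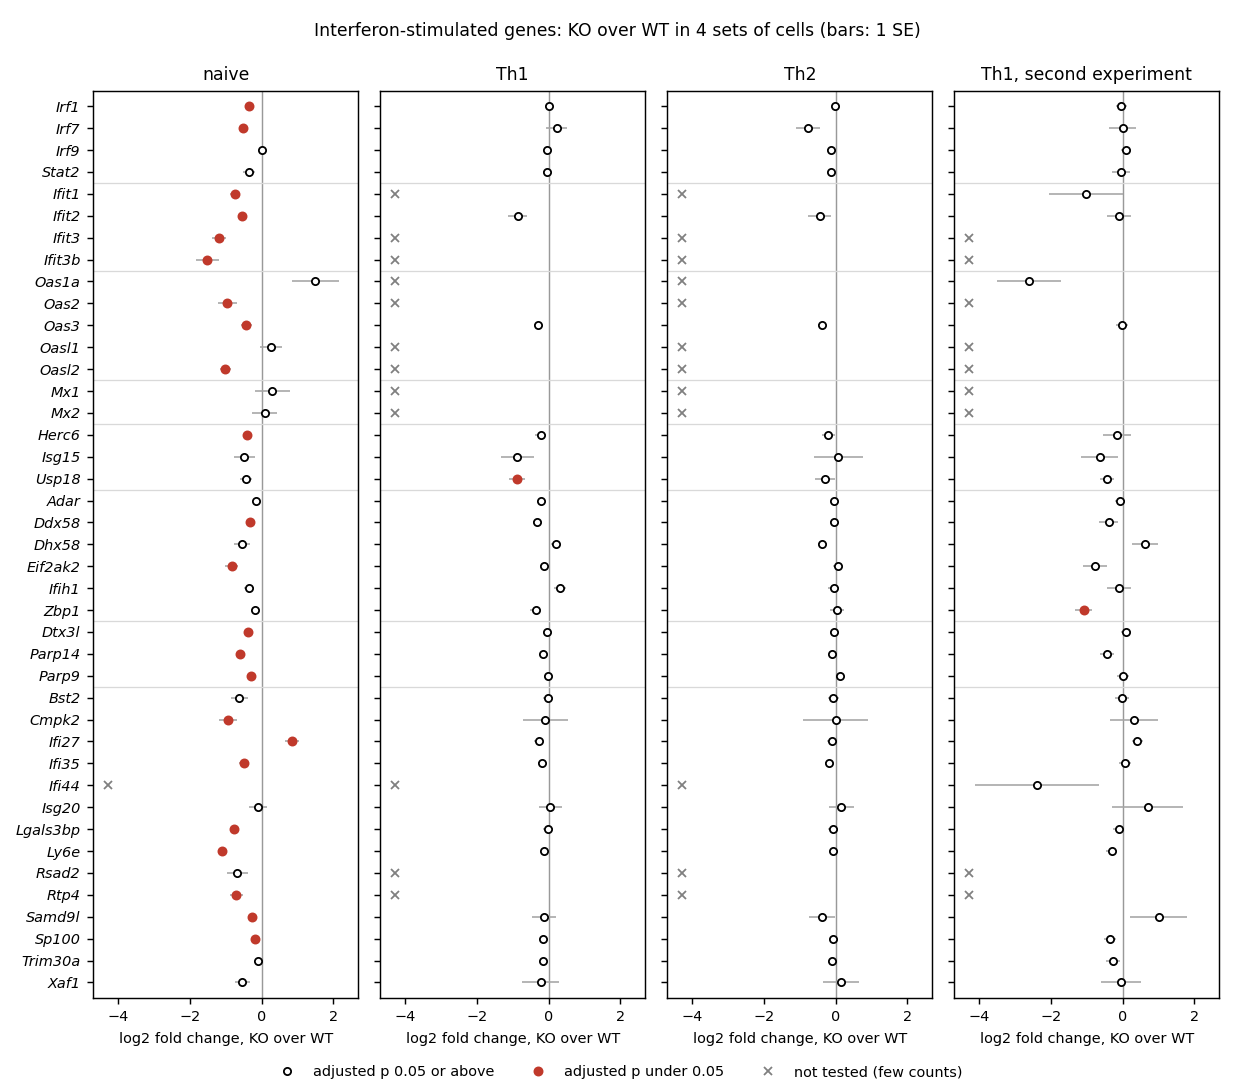
Log2 fold change of KO over WT (horizontal axis, bars are 1 SE) for each of the 41 genes, grouped by role, in naive cells, Th1 and Th2 cells of the first experiment and untransduced Th1 cells of the second. Filled points passed an adjusted p of 0.05 and crosses were not tested. The naive panel has 22 filled points below 0 and 1 above, the Th1 panels have 1 each and the Th2 panel has none.

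Of the 4 factors that carry or extend the interferon signal, 2 passed the test. Irf1, the transcription factor induced most directly by interferon gamma, had 277 and 276 CPM in naive KO libraries, against 356 and 346 CPM in naive WT libraries, and fell (log2 fold change -0.34, SE 0.06, adjusted p = 5.07e-06). Irf7, which drives type I interferon genes after infection, had 44.0 and 50.5 CPM in KO, against 64.4 and 71.5 CPM in WT, and fell (-0.52, adjusted p = 1.54e-04). Both genes separated the genotypes without overlap. Stat2 had 25.1 and 23.2 CPM in KO and 33.2 and 28.4 CPM in WT (adjusted p = 0.120), and Irf9, the DNA-binding partner of Stat2, had 129 and 129 CPM in KO and 133 and 122 CPM in WT (adjusted p = 0.928). Neither passed the test. Stat2 had a log2 fold change of -0.35, close to that of Irf1, and both KO values lay below both WT values. For Irf9 the KO values lay within the WT range (log2 fold change 0.02).

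The IFIT genes lie side by side on chromosome 19 and encode proteins that bind viral RNA and block its translation. Ifit1 (chr19:34640871-34650009, GENCODE M21 on GRCm38) had 30.9 and 33.1 CPM in naive KO libraries, against 54.4 and 52.6 CPM in naive WT libraries (log2 fold change -0.74, SE 0.13, adjusted p = 1.14e-06). Ifit2 (chr19:34550694-34576419) had 74.3 and 80.0 CPM in KO, against 113 and 113 CPM in WT (-0.55, adjusted p = 4.01e-07). Ifit3 (chr19:34583531-34588731) had 13.6 and 9.84 CPM in KO, against 23.1 and 30.1 CPM in WT (-1.19, adjusted p = 1.43e-07). In these 3 genes every KO library was below every WT library. Ifit3b, with 3.11 and 4.04 CPM in KO and 10.7 and 9.97 CPM in WT, had the lowest log2 fold change of the module (-1.52, adjusted p = 8.81e-05), and as a close paralog of Ifit3 it may share reads with it, which was not tested. The promoters of Ifit1, Ifit3 and Ifit3b, printed above, hold 2 ISRE matches each, while Ifit2 has none in its promoter windows. Among members with a promoter entry, an ISRE match was present in 6 of 17 that fell and 7 of 12 that did not pass.

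Members that act on nucleic acid or on viral replication fell in part. Of the OAS family, named for the oligoadenylates that activate RNase L, 3 of 5 members fell: Oasl2, Oas2 and Oas3. Oasl2 (chr5:114896936-114912234) had 21.8 and 19.5 CPM in naive KO libraries, against 38.6 and 44.9 CPM in naive WT libraries (log2 fold change -1.02, SE 0.15, adjusted p = 7.48e-09), without overlap. Oas1a, which has close paralogs, went the other way in sign with 2.33 and 2.11 CPM in KO and 0.689 and 0.859 CPM in WT, and did not pass (adjusted p = 0.105). Of the 6 sensors and RNA-binding enzymes, Eif2ak2 (the kinase PKR) and Ddx58 (RIG-I) fell. Eif2ak2 had 14.4 and 17.6 CPM in KO, against 27.0 and 30.2 CPM in WT (-0.84, adjusted p = 8.60e-05), and again the genotypes did not overlap. The GTPases Mx1 (2.88 ± 0.598 CPM in KO and 2.32 ± 0.855 CPM in WT, SD, n = 2 each) and Mx2 did not pass. Mx1 is defective in C57BL/6 mice and Mx2 is annotated as a polymorphic pseudogene.

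The genes of ADP-ribosylation fell together, and 1 of the 3 genes of the ISG15 system passed the test. Parp14, Parp9 and Dtx3l lie close together on chromosome 16, and each of the 3 passed the test. Parp14 (chr16:35832874-35871544), an ADP-ribosyltransferase, had 169 and 168 CPM in naive KO libraries, against 254 and 259 CPM in naive WT libraries (log2 fold change -0.60, SE 0.07, adjusted p = 8.34e-14). Dtx3l (chr16:35926511-35939151), an E3 ubiquitin ligase that partners with Parp9, had 221 and 247 CPM in KO, against 306 and 306 CPM in WT (-0.39, adjusted p = 6.85e-07). For both genes the replicates of a genotype were closer to each other than to the other genotype. Parp9 had a log2 fold change of -0.30 (adjusted p = 0.0173). It overlaps Dtx3l by 682 bases on the opposite strand, and the counts used here keep the strands apart. In the ISG15 system all 3 log2 fold changes lay between -0.48 and -0.40, and only the ligase Herc6 passed (-0.40, adjusted p = 0.0207). The ubiquitin-like modifier Isg15 itself had 7.20 and 6.15 CPM in KO and 10.2 and 8.42 CPM in WT (adjusted p = 0.279). Its protease Usp18 had 21.0 and 20.7 CPM in KO and 29.3 and 27.0 CPM in WT (-0.43, adjusted p = 0.0607).

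Among the 14 other effectors, 13 were tested, 7 fell and 1 rose. Ly6e (chr15:74955051-74959905), a lipid-anchored surface protein of lymphocytes that alters viral entry, had 131 and 119 CPM in naive KO libraries, against 279.5 and 254 CPM in naive WT libraries (log2 fold change -1.10, SE 0.07, adjusted p = 1.92e-36). Lgals3bp (chr11:118392751-118402092), a secreted galectin-binding glycoprotein, had 56.4 and 46.8 CPM in KO, against 89.2 and 87.3 CPM in WT (-0.78, adjusted p = 1.90e-10). Neither gene overlapped between genotypes. The exception to the direction was Ifi27 (chr12:103434211-103440239), with 25.9 and 25.1 CPM in KO, against 12.9 and 15.3 CPM in WT (0.85, adjusted p = 1.64e-04). The tether of budding virus Bst2 had 11.1 and 7.91 CPM in KO and 13.4 and 15.8 CPM in WT and missed the threshold (adjusted p = 0.0503). Rtp4, Cmpk2, Ifi35, Sp100 and Samd9l fell with log2 fold changes between -0.94 and -0.18. The 8 genes that stayed called under each alternative run for this comparison were Dtx3l, Ifit1, Ifit2, Irf1, Lgals3bp, Ly6e, Oasl2 and Parp14.

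**Figure D3:**
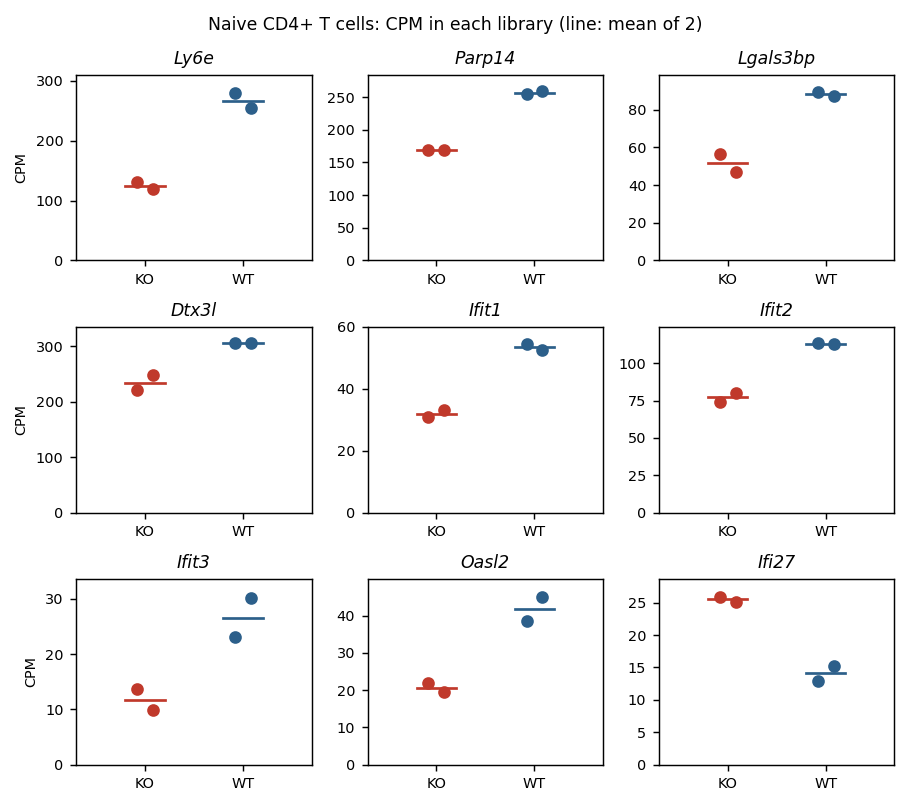
CPM in each naive CD4+ T cell library (vertical axis, from 0) for 9 of the 23 called genes, with KO in red on the left, WT in blue on the right and a line at the mean of 2 libraries. In 8 panels both KO points lie below both WT points, and in the Ifi27 panel both lie above them.

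Of the other genes of the interferon pathway, more fell than rose in naive KO cells. Of 48 genes listed (receptors, kinases, STAT and IRF factors, inhibitors, upstream sensors, interferons and GTPases), 40 were tested, 17 fell, 2 rose and 21 did not pass, against 8.75% lower and 8.79% higher among all genes. Of the 14 GTPases typical of interferon gamma, 11 fell. Gbp2 had 75.9 and 82.1 CPM in naive KO libraries, against 163 and 147 CPM in naive WT libraries (log2 fold change -0.97, adjusted p = 2.71e-22). Both receptor chains for interferon gamma fell as well (Ifngr1 -0.51, Ifngr2 -0.49), as did the inhibitor Socs3 (-0.65), whereas the kinases Jak1 (0.21) and Jak2 (0.21) rose. None of the 6 interferon genes had enough counts to be tested: Ifng reached 8 counts over both KO libraries and 12 counts over both WT libraries, and Ifnb1, Ifna1 and Ifna4 had 0 counts in both groups.

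Several measures outside the module differed between the same 2 naive groups, and their part in these differences was not tested. The KO libraries had 115 and 132 CPM of the Y-linked gene Ddx3y and 0 counts of Xist, while the WT libraries had 1.03 and 0.687 CPM of Ddx3y and 469 and 501 CPM of Xist, so genotype and sex cannot be told apart in naive cells. A list of 8 genes induced by heat or handling (such as Hspa1a, Fos and Jun) summed to 7143 to 7673 CPM in KO and 4120 to 4152 CPM in WT. Markers of red cells and platelets summed to 5.63 to 7.98 CPM in KO (1 of 6 at 0) and 21.7 to 22.7 CPM in WT (none of 6 at 0). Neutrophil markers summed to 0.703 to 0.778 CPM in KO (2 of 4 at 0) and 4.30 to 5.17 CPM in WT (1 of 4 at 0). CD8 T cell markers summed to 35.0 to 35.5 CPM in KO and 17.4 to 17.5 CPM in WT (none of 2 at 0). NK cell markers summed to 0.176 to 0.195 CPM in KO (3 of 4 at 0) and 0.859 to 1.55 CPM in WT (1 of 4 at 0). Gamma-delta T cell markers summed to 4.86 to 4.92 CPM in KO (1 of 4 at 0) and 6.54 to 12.4 CPM in WT (none of 4 at 0), and markers of memory or activated T cells to 81.4 to 84.2 CPM in KO and 95.5 to 114 CPM in WT (none of 5 at 0). KO and WT did not overlap in any of these sums, each of which rests on 2 libraries per group and was not tested. B cell markers summed to 3.31 to 4.92 CPM in KO and 6.72 to 10.8 CPM in WT, with none of 5 at 0 in either group. Monocyte markers overlapped between KO (14.8 to 17.9 CPM) and WT (15.6 to 19.3 CPM), and markers of plasmacytoid dendritic cells, the strongest producers of type I interferon, summed to 5.84 to 8.61 CPM in KO and 8.96 to 9.28 CPM in WT, with the defining gene Siglech at 0 counts in KO and 2 counts in WT.

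In Th1 and Th2 cells few interferon-stimulated genes passed the test of KO against WT, and the called shares were near those of all genes. Of 29 members tested in the first experiment, 1 fell and none rose in KO Th1 cells, against 3.56% of 12991 genes called (1.46% lower and 2.1% higher). The members' median log2 fold change was -0.13, with 24 of 29 below 0, against 49.2% of all genes. In KO Th2 cells none passed in edgeR or DESeq2, 3 had an unadjusted p below 0.05 in edgeR (Oas3, Dhx58 and Irf7), and 0.316% of all genes were called (0.216% lower and 0.1% higher). The Th2 median was -0.08, with 23 of 29 below 0, against 50.6% of all genes. These shares below 0 were not tested. The 12 members under the count minimum were Ifit1, Ifit3, Ifit3b, Oas1a, Oas2, Oasl1, Oasl2, Mx1, Mx2, Rsad2, Ifi44 and Rtp4. Just inside the minimum, the second highest library had 14 counts for Isg15 and 12 for Cmpk2, and just outside it had 7 for Mx1 and for Ifit1. A difference in the KO effect between Th1 and Th2 cells was not shown for any member in edgeR or DESeq2. Dhx58 and Irf7, 2 members in all, had an unadjusted p below 0.05 in edgeR. That test called 0% of all genes, so it does not show that the effects were equal. The members' estimated log2 differences ranged from -0.95 to 1.00.

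Usp18 (chr6:121245906-121270917), the protease that removes Isg15 and also damps the type I receptor, was the 1 member that fell in KO Th1 cells. It had 12.9, 16.7 and 12.7 CPM in KO Th1, against 25.9, 34.8 and 17.4 CPM in WT Th1 libraries (log2 fold change -0.87, SE 0.23, adjusted p = 0.0381). The groups did not overlap, but WT library 3 lay close to the KO libraries. The call was lost with DESeq2 (adjusted p = 0.130) and without WT library 1 (0.125), WT library 2 (0.186), KO library 1 (0.124) or KO library 3 (0.127). Ifit2 had 2.22, 3.96 and 5.51 CPM in KO Th1 and 7.33, 7.49 and 6.87 CPM in WT Th1 (adjusted p = 0.0797), again without overlap. The RNA sensor Ddx58 had 23.0, 22.5 and 25.7 CPM in KO Th1 and 30.2, 30.7 and 28.8 CPM in WT Th1 (adjusted p = 0.0889). Both stayed above the threshold.

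The signal factors did not pass in KO Th1 cells. Irf1 had 53.5, 46.3 and 47.9 CPM in KO Th1 and 48.1, 50.5 and 46.9 CPM in WT Th1. Stat2 had 67.0, 69.7 and 67.6 CPM in KO Th1 and 73.4, 77.6 and 62.0 CPM in WT Th1, and Irf9 had 38.1, 42.6 and 44.0 CPM in KO Th1 and 44.4, 44.1 and 39.8 CPM in WT Th1. In these 3 genes KO and WT values overlapped (adjusted p from 0.809 to 0.935). Irf7 was near the bottom of the measured range, with 2.58, 3.15 and 2.605 CPM in KO Th1 and 2.23, 2.84 and 2.10 CPM in WT Th1. Ly6e, the member with the lowest p in naive cells, had 247, 209.6 and 215 CPM in KO Th1 and 253, 256 and 220.2 CPM in WT Th1 (adjusted p = 0.584), and Bst2 had 26.2, 26.2 and 21.9 CPM in KO Th1 and 27.5, 25.9 and 21.7 CPM in WT Th1. Both overlapped between genotypes. Isg15 was barely detected, with 1.17, 0.407 and 0.801 CPM in KO Th1 and 1.49, 1.81 and 1.05 CPM in WT Th1 (adjusted p = 0.391).

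Ifng, which encodes interferon gamma and is not a member, was lower in the same Th1 libraries. It averaged 279 ± 83.3 CPM in KO Th1, against 728 ± 218 CPM in WT Th1 (SD, n = 3 each; log2 fold change -1.38, adjusted p = 0.000542). Of 41 other pathway genes tested, 2 fell (Ifng and the transcription factor Irf8, -0.37) and 1 rose (Gbp8, 0.46) in KO Th1 cells, and none was called in KO Th2 cells. Markers of gamma-delta T cells, which can also make interferon gamma, summed to 3.46 to 7.85 CPM in KO Th1 and 15.1 to 25.2 CPM in WT Th1, with none of 4 at 0, and their part was not tested. In Th2 cells the member with the lowest p was Oas3, with 40.4, 39.7 and 36.3 CPM in KO Th2 and 56.7, 47.0 and 48.0 CPM in WT Th2 (log2 fold change -0.38, adjusted p = 0.181). The genotypes did not overlap for Oas3. Of the signal factors, Irf7 had 2.97, 1.43 and 1.39 CPM in KO Th2 and 3.73, 3.69 and 2.35 CPM in WT Th2 (adjusted p = 0.446), and Usp18 had 9.45, 8.23 and 7.43 CPM in KO Th2 and 8.85, 15.5 and 6.62 CPM in WT Th2 (adjusted p = 0.848), both with overlap. Oas3, like Ifit2 and Ddx58 in KO Th1 cells above, was singled out after its values were seen.

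A joint fit of naive and cultured libraries tested whether the KO effect itself differed between the cell states. It differed between Th1 and naive cells for 4 of 40 members, 3 with a higher and 1 with a lower value in Th1, against 3.07% of 13931 genes (1.61% higher and 1.46% lower). It differed between Th2 and naive cells for 4 of 40, again 3 higher and 1 lower, against 3.32% of genes (1.6% higher and 1.72% lower). Both comparisons use the same naive libraries. For Ly6e the KO effect was higher by 0.98 in Th1 (SE 0.14, adjusted p = 0.000194) and by 1.03 in Th2 (SE 0.15, adjusted p = 0.000103) than in naive cells on the log2 scale. For Ifi27 it was lower, with differences of -1.13 (adjusted p = 0.00272) in Th1 and -0.96 (adjusted p = 0.0123) in Th2. Its own log2 fold change (KO over WT) was -0.28 in Th1 and -0.12 in Th2, neither past the threshold, against 0.85 in naive cells. Parp14 differed by 0.46 in Th1 (adjusted p = 0.0180) and 0.50 in Th2 (adjusted p = 0.0129). Lgals3bp differed in Th1 (0.76, adjusted p = 0.0463) and Eif2ak2 in Th2 (0.90, adjusted p = 0.0149). For the other members a difference between naive and cultured cells was not shown. They include the 11 members that passed the count minimum only through the naive libraries. Their counts in cultured cells are too few to measure a KO effect there, so the test cannot decide for them. Over all 40 members the estimated differences ranged from -4.27 to 3.35 in Th2. Leaving out any 1 of the 4 naive libraries left 2 members in Th1, and leaving out naive KO library 2 or naive WT library 2 left 2 in Th2.

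Th1 cells held more RNA of several interferon-stimulated genes than Th2 cells, in both genotypes, and less RNA of the sensor Ifih1. In KO cells 5 of 29 members were higher and 2 lower in Th1 than in Th2 cells, against 7.68% higher and 9.19% lower among 12991 genes (16.9% called). The members' median log2 fold change (Th1 over Th2) was 0.20. In WT cells 11 members were higher and 2 lower in Th1, against 13.3% higher and 15.5% lower among all genes (28.9% called), with a median of 0.14. The share of lower members, 2 of 29 in each genotype, was near that of all genes in KO cells and below it in WT cells. These shares were not tested. Leaving out KO Th2 library 2 left 4 members called in KO cells. Neutrophil markers (3 of 4 at 0 in each group) summed to 5.71 to 7.11 CPM in KO Th1 and 0.715 to 2.02 CPM in KO Th2, and to 4.89 to 11.9 CPM in WT Th1 and 0.277 to 1.10 CPM in WT Th2. B cell markers (none of 5 at 0) summed to 5.504 to 9.52 CPM in KO Th1 and 14.4 to 23.4 CPM in KO Th2, and to 3.93 to 8.20 CPM in WT Th1 and 8.16 to 23.9 CPM in WT Th2. Gamma-delta T cell markers summed to 3.46 to 7.85 CPM in KO Th1 and 1.39 to 3.78 CPM in KO Th2 (1 of 4 at 0 in KO Th2), and to 15.1 to 25.2 CPM in WT Th1 and 5.67 to 10.7 CPM in WT Th2. The part of these cell type markers in the Th1 to Th2 differences was not tested.

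Irf1 (chr11:53770014-53778374) had the lowest p in both genotypes. In KO cells it had 53.5, 46.3 and 47.9 CPM in Th1, against 33.2, 28.7 and 30.3 CPM in Th2 (log2 fold change 0.68, SE 0.09, adjusted p = 2.53e-05). In WT cells it had 48.1, 50.5 and 46.9 CPM in Th1, against 30.4, 33.2 and 29.1 CPM in Th2 (log2 fold change 0.65, SE 0.09, adjusted p = 2.17e-05). Every Th1 library lay above every Th2 library. Zbp1 (chr2:173206612-173218923), a sensor of left-handed nucleic acid that can trigger necroptosis, followed the same order. It had 14.2, 15.6 and 17.7 CPM in KO Th1, against 10.7, 9.30 and 7.43 CPM in KO Th2 (0.80, adjusted p = 0.00231), and 22.0, 21.2 and 17.8 CPM in WT Th1, against 6.91, 11.2 and 8.42 CPM in WT Th2 (1.20, adjusted p = 2.27e-05). Usp18 in KO cells had 12.9, 16.7 and 12.7 CPM in Th1 and 9.45, 8.23 and 7.43 CPM in Th2, which did not overlap but missed the threshold (0.76, adjusted p = 0.0548). In WT cells it passed, with 25.9, 34.8 and 17.4 CPM in Th1, against 8.85, 15.5 and 6.62 CPM in Th2 (1.33, adjusted p = 4.16e-04).

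Dtx3l, Parp14 and Ly6e were also higher in Th1 cells of both genotypes, and Parp9 in WT cells. Dtx3l had 202, 205 and 223 CPM in KO Th1, against 158, 161 and 176 CPM in KO Th2 (0.35, adjusted p = 0.00147), and 208, 222 and 216 CPM in WT Th1, against 177, 174 and 160.3 CPM in WT Th2 (0.34, adjusted p = 0.00107). Parp14 had 52.0, 51.2 and 54.3 CPM in KO Th1, against 43.9, 42.8 and 39.0 CPM in KO Th2 (0.33, adjusted p = 0.00569), and 59.2, 56.9 and 58.1 CPM in WT Th1, against 46.7, 45.0 and 44.1 CPM in WT Th2 (0.36, adjusted p = 0.00150). Ly6e had 247, 209.6 and 215 CPM in KO Th1, against 197, 162 and 161 CPM in KO Th2 (0.37, adjusted p = 0.0106), and 253, 256 and 220.2 CPM in WT Th1, against 181, 202 and 164 CPM in WT Th2 (0.41, adjusted p = 0.00242). Th1 and Th2 libraries of the same genotype did not overlap in these 3 genes. The Ly6e call in KO cells was lost without KO Th2 library 2 or 3. Parp9 (0.32), Eif2ak2 (0.41), Ifi27 (0.37), Ifit2 (0.77) and Isg15 (1.597) completed the WT list, and Isg15 stood at only 1.49, 1.81 and 1.05 CPM in WT Th1, against 0.415, 0.852 and 0.138 CPM in WT Th2. Of 13 alternatives, 5 lost the Ifit2 call and 5 the Isg15 call (DESeq2 among them for Isg15), 3 lost Ifi27 and 1 lost Eif2ak2, while Parp9 held in each. Parp9 in KO cells had a log2 fold change of 0.19 (adjusted p = 0.0952).

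The cytosolic RNA sensor Ifih1 ran the other way in both genotypes. Ifih1 (MDA5, chr2:62595798-62646255) had 16.9, 14.3 and 12.9 CPM in KO Th1, against 19.7, 24.9 and 23.4 CPM in KO Th2 (-0.63, adjusted p = 0.00971). In WT cells it had 11.3, 12.02 and 12.2 CPM in Th1, against 26.0, 16.6 and 28.4 CPM in Th2 (-1.001, adjusted p = 1.35e-04). All Th1 values were below all Th2 values in both genotypes. The call in KO cells was lost without KO Th1 library 3 or KO Th2 library 2. Dhx58 (LGP2), its regulator, had 30.0, 31.0 and 24.9 CPM in KO Th1 and 25.1, 27.5 and 22.8 CPM in KO Th2 (0.19, adjusted p = 0.348), and 20.3, 29.04 and 25.8 CPM in WT Th1, against 35.0, 31.0 and 32.0 CPM in WT Th2 (-0.38, adjusted p = 0.0263). Dhx58 thus passed in WT cells alone, and lost the call with total counts only, without WT Th1 library 1 or without WT Th2 library 1. Ddx58 (RIG-I) was lower in KO Th1 than in KO Th2 cells, with 23.0, 22.5 and 25.7 CPM in Th1, against 26.9, 34.0 and 32.4 CPM in Th2 (-0.39, adjusted p = 0.0145), a call lost without KO Th1 library 2, KO Th2 library 2 or KO Th2 library 3. No member's Th1 to Th2 difference was itself shown to depend on genotype, since that test called none of the 29. Of 41 other pathway genes tested in WT cells 14 were higher and 7 lower in Th1, and 8 of the 14 GTPases of interferon gamma were among the higher ones.

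**Figure D4:**
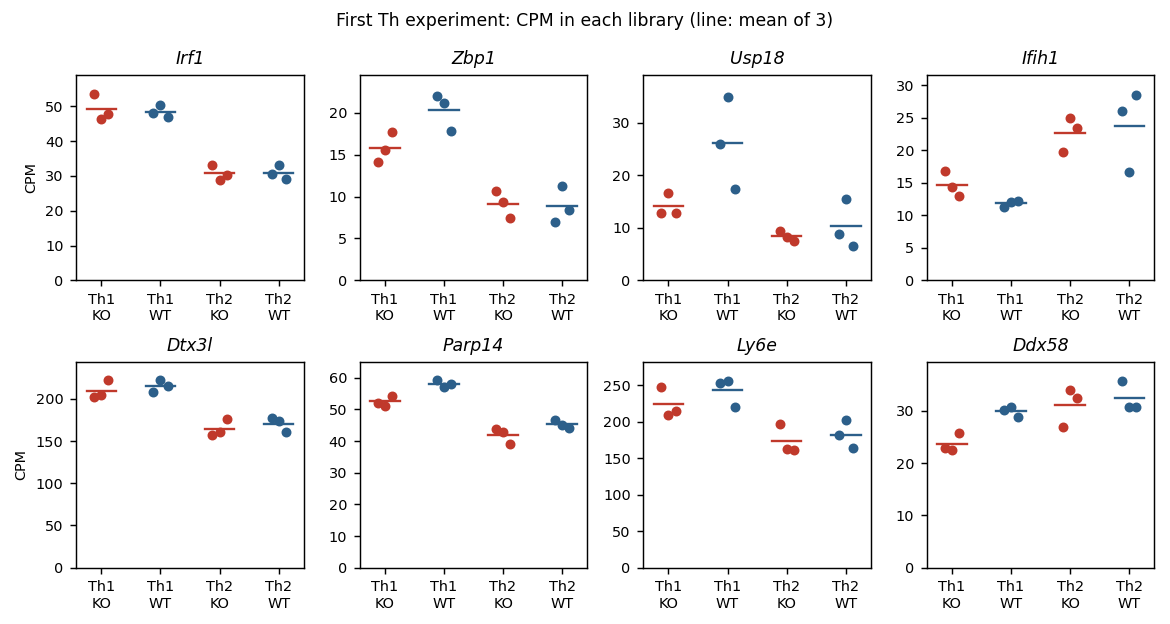
CPM in each library of the first Th experiment (vertical axis, from 0) for Irf1, Zbp1, Usp18, Ifih1, Dtx3l, Parp14, Ly6e and Ddx58, with KO in red left of WT in blue for Th1 and then Th2 cells and a line at the mean of 3 libraries. Irf1 and Zbp1 are higher in Th1 than in Th2 cells of both genotypes, Ifih1 is lower, and Usp18 is highest in WT Th1 cells.

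Most interferon-stimulated genes were lower in cultured WT cells than in naive WT cells. With all 16 libraries scaled together, 5 of 40 members were higher and 31 lower in WT Th1 than in WT naive cells, against 40% higher and 35.6% lower among 13931 genes, so 75.6% of all genes were called. The members' median log2 fold change was -2.22, against 0.12 for all genes. In WT Th2 cells 5 members were higher and 33 lower than in naive cells, against 40.2% and 36.2% of all genes (76.4% in either direction), with a median of -2.50. Of the 40 members, 11 passed the count minimum only through the naive libraries and had to differ. The 29 that also passed in cultured cells gave 5 higher, 20 lower and 4 not passed in Th1, with a median of -1.36, and 5 higher, 22 lower and 2 not passed in Th2, with a median of -1.35. Naive and cultured cells were separate sets of libraries, so culture and set cannot be told apart.

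The interferon-induced transcription factors fell in culture. Irf7 had 2.21, 2.81 and 2.08 CPM in WT Th1 and 3.68, 3.63 and 2.30 CPM in WT Th2, against 66.9 and 74.6 CPM in WT naive libraries (log2 fold change -4.90 in Th1 and -4.46 in Th2). Irf1 had 47.7, 50.001 and 46.6 CPM in WT Th1 and 30.0, 32.6 and 28.6 CPM in WT Th2, against 369.8 and 361 CPM in WT naive libraries (-2.93 and -3.59). Naive and cultured values were far apart for both factors. Among effectors, Ifit2 had 7.26, 7.42 and 6.82 CPM in WT Th1 and 4.63, 5.02 and 2.84 CPM in WT Th2, against 118 and 118 CPM in WT naive libraries (-4.04 and -4.82). Sp100, a component of PML nuclear bodies, had 98.8, 101 and 95.1 CPM in WT Th1 and 92.9, 89.8 and 87.2 CPM in WT Th2, against 539 and 532 CPM in WT naive libraries (-2.45 and -2.57). Adjusted p was at most 6.97e-17 in these 8 tests.

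Some members nearly vanished from the cultured cells. Over the 3 WT Th1 libraries together (28276925 counts), Oasl2 had 2 counts, against 485 counts over the 2 WT naive libraries (11697411 counts), a ratio of 0.00171 with a 95% counting interval from 0.000206 to 0.00620. Rtp4, a chaperone of receptors, had 2 counts in WT Th1, against 311 in naive cells, and Ifit3 had 5 counts, against 309. Ifit1 had 14 counts in WT Th1 and 10 in WT Th2, against 622 in naive cells. Ifit3b had 0 counts in WT Th2 (22263888 counts), against 120 in naive cells, which makes it at least 76.1-fold lower when 3 counts over the group are taken as the floor. All 5 are among the members that passed the count minimum only through the naive libraries, so these values describe the levels and do not test them. In the second experiment Ifit1 just reached the minimum and the other 4 did not.

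The 5 higher members ran against this direction. Stat2 had 72.7, 76.9 and 61.6 CPM in WT Th1 and 89.6, 78.9 and 76.6 CPM in WT Th2, against 34.5 and 29.6 CPM in WT naive libraries (log2 fold change 1.13 in Th1, adjusted p = 1.46e-09, and 1.35 in Th2). Oas3 had 55.3, 57.1 and 42.7 CPM in WT Th1 and 55.8, 46.2 and 47.1 CPM in WT Th2, against 30.9 and 36.9 CPM in WT naive libraries (0.61 and 0.55). In both genes every cultured library was above both naive libraries. Bst2 (0.70 and 0.52), Ifi27 (0.94 and 0.56) and Dhx58 (0.54 and 0.91) were also higher in WT Th1 and WT Th2 than in WT naive cells. Ly6e had 251, 254 and 219 CPM in WT Th1 and 178, 198 and 161 CPM in WT Th2, against 290.2 and 265 CPM in WT naive libraries. It fell in Th2 (-0.63) but did not pass in Th1 (-0.20, adjusted p = 0.0659). Usp18 did not pass in Th1 (-0.19, adjusted p = 0.455) and fell in Th2 (-1.53).

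**Figure D5:**
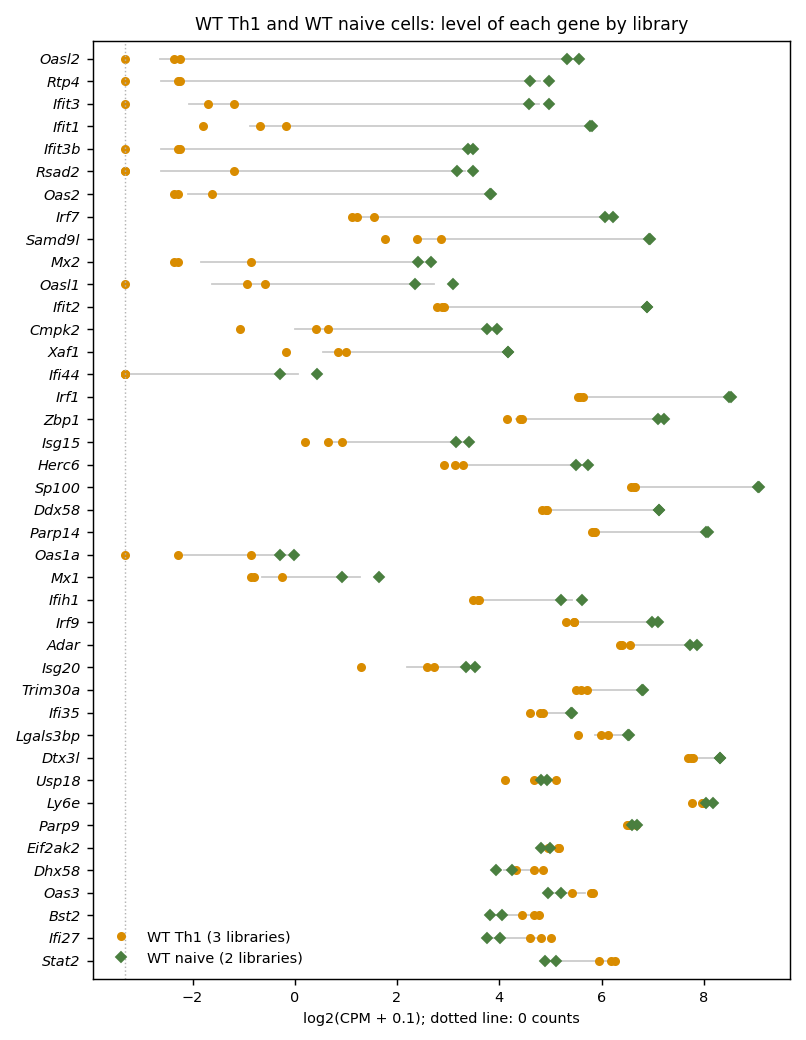
Level of each of the 41 genes as log2(CPM + 0.1) (horizontal axis) in 3 WT Th1 libraries (orange circles) and 2 WT naive libraries (green diamonds), ordered by the difference between the means. The genes at the top, Oasl2 and Rtp4 among them, are at or near 0 counts in Th1 cells, and Stat2 is at the other end with Th1 above naive.

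Levels per kilobase of transcript put the members in order within a group. In naive KO cells Irf1 (69.6 CPM per kb) was followed by Sp100 (60.2) and Dtx3l (40.9). In naive WT cells Irf1 (88.3) was followed by Ly6e (70.5), Sp100 (68.1) and Dtx3l (53.4). Ly6e stood at 33.0 CPM per kb in naive KO cells, behind Zbp1 (34.3). In KO Th1 cells of the first experiment Ly6e (59.1) led before Dtx3l (36.6) and Bst2 (27.5), and in WT Th1 cells the order was the same (64.3, 37.6 and 27.7). In the second experiment Ifi27 led in untransduced KO cells (40.1), ahead of Ly6e (36.0), Bst2 (30.1) and Dtx3l (27.3), and Ly6e led in untransduced WT cells (44.9), ahead of Bst2 (31.5) and Ifi27 (30.9). These lengths are those of the union of exons, and the order does not test any difference between neighbours.

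The second experiment repeated the KO to WT comparison in untransduced Th1 cells with a separate set of libraries. Of 32 members tested, 1 fell and none rose in KO cells, against 1.21% of 10836 genes (0.609% lower and 0.6% higher). The median log2 fold change was -0.09 with 24 of 32 below 0, against 51.0% of all genes. Zbp1 was the 1 member called. It had 18.5 and 15.3 CPM in KO, against 45.1 and 28.996 CPM in WT libraries (B number 1 first; log2 fold change -1.09, SE 0.24, adjusted p = 0.0429). The groups did not overlap, but the adjusted p was 0.224 with KO library 1 left out, 0.198 with KO library 2 left out, 0.205 with WT library 1 left out and 0.159 with scaling by total counts alone. Usp18 had 42.3 and 56.6 CPM in KO and 71.8 and 60.0 CPM in WT (-0.44, adjusted p = 0.346), without overlap. Ly6e had 145 and 127 CPM in KO and 173 and 166 CPM in WT (-0.31, adjusted p = 0.343), also without overlap. Ifng averaged 368 ± 94.2 CPM in KO and 1136 ± 47.0 CPM in WT (SD, n = 2 each; adjusted p = 0.00223), and gamma-delta T cell markers summed to 1.12 to 1.13 CPM in KO (2 of 4 at 0) and 7.41 to 8.19 CPM in WT (1 of 4 at 0). The part of these markers in the members' values was not tested.

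The B numbers separated the libraries of this experiment. Ddx3y was at 37.2 to 56.4 CPM in libraries with B number 1 and at 0 to 0.112 CPM in those with B number 2, in all 4 groups, and the labels do not say what B stands for. Within B number 1, 24 of 32 members were lower in KO than in WT untransduced cells, with a median log2 ratio of -0.32. Within B number 2, 14 of 32 were lower, with a median of 0.02. The median over all 32 members was 0.09 without WT library 1 and -0.35 without WT library 2, so the direction of the median changed when WT library 1 was left out. Eif2ak2 shows the pattern, with 26.9 and 27.7 CPM in KO and 66.0 and 29.3 CPM in WT (-0.78, adjusted p = 0.314). Parp14 had 66.1 and 65.1 CPM in KO and 107 and 71.7 CPM in WT, and Sp100 had 76.0 and 86.6 CPM in KO and 123 and 84.3 CPM in WT. In these 3 genes, singled out after their values were seen, the first WT library was high and the second lay near the KO libraries. Of the 32 members, 28 were higher in B number 1 than in B number 2 of untransduced WT cells and 18 were higher in untransduced KO cells.

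Of the signal factors, Irf1 had 57.7 and 52.6 CPM in untransduced KO cells and 62.5 and 52.2 CPM in untransduced WT cells. Stat2 had 60.3 and 69.0 CPM in KO and 81.7 and 52.5 CPM in WT, and Bst2 had 30.6 and 23.8 CPM in KO and 32.2 and 24.7 CPM in WT. KO and WT overlapped in each of these. Isg15 had 3.08 and 1.697 CPM in KO and 4.17 and 3.94 CPM in WT (adjusted p = 0.633), low in both.

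Retroviral transduction changed no member past the threshold. The empty virus was compared with no virus in WT Th1 cells, and none of 32 members was called in edgeR or DESeq2, and 0% of all genes were called. Samd9l and Lgals3bp, 2 members, had an unadjusted p below 0.05 in edgeR. The virus carrying Ets1 raised Ets1 itself in KO Th1 cells to 419 ± 51.2 CPM, against 233 ± 17.5 CPM in untransduced KO cells (SD, n = 2 each; log2 fold change 0.85, adjusted p = 0.0221). None of 32 members was called in that comparison in edgeR or DESeq2 (Dhx58 and Ly6e, 2 members, had an unadjusted p below 0.05 in edgeR), against 0.157% of all genes (0.12% higher and 0.0369% lower). Zbp1 had 23.2 and 19.7 CPM in KO cells with the Ets1 virus and 18.5 and 15.3 CPM in untransduced KO cells (0.31, adjusted p = 0.724). Ly6e had 168 and 198 CPM with the Ets1 virus and 145 and 127 CPM in untransduced KO cells (0.42, adjusted p = 0.293). The values of both genes with the virus were above those without it, and neither passed. This comparison changes transduction and the gene carried together, and the part of each was not tested. In WT cells the log2 ratio of empty virus over no virus was 0.26 in B number 1 and 0.21 in B number 2 for Ly6e. For Zbp1 it was -0.05 in B number 1 and 0.24 in B number 2.

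KO cells with the Ets1 virus were then set against WT cells with the empty virus, which differ in genotype and in the gene carried. None of 32 members was called in edgeR or DESeq2 (7 at an unadjusted p below 0.05 in edgeR), against 0.581% of all genes (0.268% lower and 0.314% higher). Of the 32 members 28 were below 0, against 50.2% of all genes, with a median log2 fold change of -0.27. Zbp1 came closest, with 23.2 and 19.7 CPM in KO with the Ets1 virus and 43.6 and 34.4 CPM in WT with the empty virus (-0.89, adjusted p = 0.0665). Usp18 had 42.0 and 30.6 CPM in KO with the Ets1 virus and 63.9 and 46.9 CPM in WT with the empty virus (-0.64, adjusted p = 0.196). Neither gene overlapped between the groups. Irf1 had 51.8 and 44.3 CPM in KO with the Ets1 virus and 60.3 and 66.9 CPM in WT with the empty virus (-0.40, adjusted p = 0.314). Within B number 1 the members' median was -0.48 with 30 of 32 below 0, and within B number 2 it was -0.06 with 17 of 32 below 0. A fit with the B number as a block called 1 member, Zbp1, and a fit that kept the 2 libraries of each B number apart called 4, Adar, Irf1, Usp18 and Zbp1. Libraries of a transduced group that share a B number were close to repeats (chi-square per degree of freedom of 1.26 to 1.99, against 3.44 to 18.2 across B numbers), so the second of these fits counts near repeats as replicates. KO cells with the empty virus, and WT cells with the Ets1 virus, were not analysed here as groups.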

How the data were processed

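RNA was counted per gene in 36 libraries, and the values deposited by the authors are raw read counts per Ensembl gene, not normalized, 1 table per library. Per the submitters' processing notes, reads were aligned to GRCm38 with STAR 2.5.0a; the sources used here do not name the annotation release. Each table gives counts without strand and for either strand. The third of these (column 4) held 93.3 to 95.2% of the stranded counts and was used. Lines that name no gene (unmapped, multimapping, no feature, ambiguous) came to 63.6 to 76.0% of each table's total and were left out. GENCODE M21 symbols matched 45143 of 45706 identifiers.

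Genes with at least 10 counts in at least 2 libraries of a set were tested with edgeR 4.0.16 in R 4.3.3 (TMM scaling, quasi-likelihood test, p-values adjusted by Benjamini-Hochberg across every tested gene, threshold 0.05). DESeq2 1.42.0 was an alternative. Naive libraries, the first Th experiment and the second experiment were fitted apart, and naive and first-experiment libraries jointly for comparisons across them. In the second experiment a group's libraries were summed by B number, giving n = 2. Naive and first-experiment libraries all share B number 1 and were kept apart, so their n counts T numbers within it. Chi-square per degree of freedom was 1.94 between the naive WT libraries, inside the 1.26 to 1.99 of the near repeats above. It was 4.69 between the naive KO libraries and 2.37 to 7.84 within groups of the first experiment. The fits were tested on simulated data. Counting intervals and floors cover counting error only.

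Groups came from titles and transduction labels, never from file names. Values are given for members called in a comparison, at most the 8 with the lowest p in each direction. Where fewer than 4 were called, they are given for some or all of Stat2, Irf1, Irf7, Irf9, Isg15, Ifit3, Usp18, Bst2 and Ly6e. For KO against WT in Th2 and untransduced cells, and for the virus comparisons, only part of this list is shown. In helper cells of the first experiment Ifit3 was at most 0.34 CPM, and it was under the count minimum in both Th experiments. Some members singled out after their values were seen are named as such or by an unadjusted p. Other uncalled members shown outside these rules are not each named. The values of 1 gene of the pathway list are not reported here. The members, the pathway list and the marker lists were chosen with earlier results of these data known. Alternatives were other scalings, no count filter, edgeR's own filter, unstranded counts, a replicate block, libraries kept apart and each library left out. The main fits did not pair same-numbered libraries. The correlations of their deviations ranged from -0.10 to 0.34. The highest was between WT cells with the empty virus and untransduced WT cells. It is 1 value for both B numbers, since with 2 columns per group the deviations mirror each other. In these groups 26 and 28 of 32 members were higher in B number 1 than in B number 2, so a shared deviation is not excluded.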

Additional observations from a re-analysis of the deposited data

Results flagged for a closer look

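The KO effect on some members differed between cultured and naive cells by a test of the difference itself (the interaction in edgeR's joint fit, on the log2 scale, cultured minus naive). In Th1 cells the difference was 0.98 for Ly6e (adjusted p = 0.000194), -1.13 for Ifi27 (adjusted p = 0.00272), 0.46 for Parp14 (adjusted p = 0.0180) and 0.76 for Lgals3bp (adjusted p = 0.0463). In Th2 cells it was 1.03 for Ly6e (adjusted p = 0.000103), -0.96 for Ifi27 (adjusted p = 0.0123), 0.50 for Parp14 (adjusted p = 0.0129) and 0.90 for Eif2ak2 (adjusted p = 0.0149). All 8 rest on the same 4 naive libraries. In these, Ddx3y and Xist place KO and WT on different sexes, so genotype and sex cannot be told apart. Both differences for Ly6e and that for Ifi27 in Th1 were called under each alternative run, and the other 5 were lost under at least 1.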

How the results depend on the processing

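Counts below are members called in edgeR. In naive KO against WT, 23 were called, DESeq2 called 13, and leaving out 1 library gave 9 to 19. In KO against WT Th1 cells 1 was called, 2 with no count filter, 0 with DESeq2 and 0 to 2 with 1 library left out. In Th2 cells 0 were called, and 1 with no count filter. In KO Th1 against KO Th2, 7 were called and 4 to 8 with 1 library left out. For the KO effect in Th1 against naive cells 4 were called and 2 to 6 with 1 library left out, and in Th2 against naive cells 4 and 2 to 5. In untransduced cells 1 was called, 0 with total counts only, 2 with no count filter and 0 to 2 with 1 library left out. In KO with the Ets1 virus against WT with the empty virus 0 were called, 2 with no count filter and 4 with libraries kept apart. With a replicate block, this comparison gave 1, naive cells 22, Th1 1, Th2 0, WT Th1 against Th2 15, KO Th1 against Th2 9, the 2 effects against naive 5 each and untransduced cells 1; the labels give same-numbered libraries only a number, and in the second experiment those with one B number also share a high or near-absent Ddx3y level, so these are not given as paired results. No call changed direction under any alternative run. Of the calls, 8 of 23 held under every alternative in naive cells, 8 of 13 in WT Th1 against Th2, 4 of 7 in KO, 34 of 36 in WT Th1 against naive and 35 of 38 in WT Th2 against naive; Usp18 in Th1 and Zbp1 in untransduced cells did not. Where leaving out a library left 1 in a group, that library was assumed to vary like the others. The causes were not tested. The median depth per library was lowest in the second experiment, and its part in the calls was not tested.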

Other observations

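The 8 libraries in no group are titled either as KO cells with the empty virus or as WT cells with the Ets1 virus, and their transduction labels state the other virus. Over all 8, the mean log2 CPM of the 41 genes ranged from 2.28 to 3.45. The 4 libraries titled KO with the empty virus had means of 3.45, 3.31, 3.20 and 3.28, Zbp1 at 49.3, 40.9, 43.5 and 43.8 CPM, Ets1 at 565 to 632 CPM, and 5, 9, 17 and 13 counts of Gm27162. The 4 libraries titled WT with the Ets1 virus had means of 2.57, 2.44, 2.28 and 2.38, Zbp1 at 19.4, 21.8, 17.5 and 15.9 CPM, Ets1 at 189 to 269 CPM, and 0 counts of Gm27162 in each. In the 28 grouped libraries Gm27162 was counted in every WT library and in no KO library. Apart from these Gm27162 counts, the 8 libraries were not set against any group, and they entered no test.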
